A study of Mus musculus with 12 samples.

Results

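The CC chemokine genes described here are Ccl2, Ccl3, Ccl4, Ccl5, Ccl6, Ccl7, Ccl9, Ccl12, Ccl17 and Ccl22, 10 of the 21887 protein-coding genes in the annotation, and the measurement is FRA-1 binding to chromatin around them. A binding region belonged to these genes when the authors had written the gene's symbol beside it or when it lay within 20 kb of the gene body, and a region shared by neighbouring genes was counted once. This gave 47 of the 300608 regions found over all 9 replicates. FRA-1 ChIP-seq was performed on adherent peritoneal macrophages of 8-week-old mice in 3 conditions with 3 replicates each, namely left unstimulated, stimulated for 1 h with LPS, or given apoptotic cells for 1 h at a ratio of 1:5. The sample records describe male or female mice on a mixed 129/C57Bl6 background injected with 2.5 ml of 4% thioglycollate 72 h before lavage and 1 µg/ml LPS, whereas the design text gives C57Bl/6 mice, plain lavage and 10 µg/ml LPS. The records name the same 3 mice in every condition, while the design text counts 9 animals. All groups shared the overnight plating, and no genotype or engineered allele is named. Peak positions cannot check the labelled cell type, and the 3 input samples were left out.

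CC chemokines are small secreted proteins with a pair of adjacent cysteines that attract leukocytes through G protein-coupled receptors, and macrophages are a main source of them in inflammation. Most of their mouse genes lie in clusters on chromosome 11, while Ccl17 and Ccl22 lie on chromosome 8. FRA-1, the product of Fosl1, is a FOS family member that pairs with JUN proteins into the AP-1 transcription factor and recognises DNA letters of the form TGANTCA. Many chemokine genes respond to LPS through NF-κB and AP-1 together.

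In each deposited table, a peak carries a score for every replicate that reads as a Phred-scaled p-value, so that a higher score stands for a smaller p. Scores began at 50.01 and were not normalized between replicates. Read counts are missing from the tables, and depth is therefore unknown. Column order numbers the replicates, and no column is tied to a mouse, so that p-values measure only the spread between columns. The replicates held from 20981 to 79474 peaks, and their smallest peak widths formed 2 classes. Unstimulated replicate 3, LPS replicates 1 and 3 and apoptotic cell replicate 3 were of the narrow class (104 to 116 bp), and the other 5 of the wide class (158 to 172 bp). By median peak width, apoptotic cell replicate 3 (172 bp) was nearer the wide class (190 to 223 bp) than the other narrow replicates (113 to 140 bp).

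Promoter sequences were searched for the AP-1 letters and for peaks lying on them. A promoter sequence was matched for 6 of the 10 genes (Ccl3, Ccl6, Ccl9, Ccl12, Ccl17 and Ccl22; RefSeq, GRCm38.p6; 250 bases before to 50 after the start), and Ccl2, Ccl4, Ccl5 and Ccl7 had no entry. Among these 6, the AP-1 letters TGANTCA, searched on both strands, occurred once, in Ccl9. Of 32851 promoters of the same length, 7.81% held them. The 250 bases before the start of Ccl9 (chr11:83578637-83578886, minus strand) are shown for this match, which is in capitals, beside those of its neighbour Ccl6 (chr11:83593088-83593337, minus strand), which lacks it. Heatr9 (chr11:83522100-83522349, minus strand) is no chemokine gene and was added after its values were seen, since the most widely shared region near Ccl5 lay next to it.
Ccl9: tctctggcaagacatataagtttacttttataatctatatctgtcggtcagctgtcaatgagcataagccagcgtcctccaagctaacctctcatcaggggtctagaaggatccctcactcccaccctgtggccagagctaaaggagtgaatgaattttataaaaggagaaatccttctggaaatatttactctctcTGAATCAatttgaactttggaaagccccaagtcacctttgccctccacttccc
Ccl6: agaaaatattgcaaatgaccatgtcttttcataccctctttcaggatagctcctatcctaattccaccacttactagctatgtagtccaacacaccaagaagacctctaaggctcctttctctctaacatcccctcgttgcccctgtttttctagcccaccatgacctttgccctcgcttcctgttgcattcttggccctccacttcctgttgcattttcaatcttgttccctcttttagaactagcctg
Heatr9: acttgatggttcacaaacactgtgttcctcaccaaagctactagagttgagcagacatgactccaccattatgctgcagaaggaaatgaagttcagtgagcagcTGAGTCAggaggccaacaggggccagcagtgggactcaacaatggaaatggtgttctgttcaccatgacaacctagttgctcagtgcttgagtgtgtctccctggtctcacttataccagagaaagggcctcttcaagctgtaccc

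No FRA-1 peak lay on any of the 6 chemokine promoters in any of the 9 replicates. The nearest region was 1491 bp from the promoter of Ccl9, 2830 bp from that of Ccl17, 2837 bp from that of Ccl6, 4534 bp from that of Ccl12, 8832 bp from that of Ccl22 and 8993 bp from that of Ccl3. In single replicates, 0.268 to 1.12% of all promoters had a peak on them, so 0 of 6 is not a result about these genes. The match in Ccl9 begins at position −53 from the start, and that in Heatr9 at −146. The middle letter of the usual AP-1 site is C or G, which the match in Heatr9 has and that in Ccl9 lacks. Further motifs were searched on both strands of the same 6 promoters. The cAMP response element TGACGTCA, held by 1.79% of all promoters, was in none of them. The NF-κB letters GGG and CC with any 5 letters between them, held by 50.8% of all promoters, matched at 2 places in Ccl22 and 1 place in Ccl9, where they did not overlap the AP-1 letters.

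FRA-1 peaks near the CC chemokine genes were more numerous after either stimulus than without it, and the totals over the genome moved with this (20981 to 28314 peaks in unstimulated, 39728 to 63010 in LPS and 31501 to 79474 in apoptotic cell replicates). Unstimulated replicates 1, 2 and 3 had 4, 2 and 4 peaks within 20 kb of the 10 genes, LPS replicates had 12, 7 and 8, and apoptotic cell replicates had 7, 10 and 10. Every stimulated replicate lay above every unstimulated one. The means were 3.33 ± 1.15 without stimulation, 9.0 ± 2.65 after LPS and 9.0 ± 1.73 with apoptotic cells (SD, n = 3 each). The ratio to unstimulated macrophages was 2.7 for LPS and 2.7 for apoptotic cells (exact permutation tests, two-sided, p = 0.1 each, the smallest p that 3 against 3 replicates allow), and the means of LPS and apoptotic cells were equal (p = 1.0). With equal numbers of top-scoring peaks taken from each replicate, the ratio was 1.12 for LPS (exact permutation test, p = 1.0) and 1.62 for apoptotic cells (p = 0.6). Within the narrow class, the ratio for LPS was 2.5, from 4 peaks in 1 unstimulated replicate and a mean of 10.0 in 2 LPS replicates, and that for apoptotic cells was also 2.5, from 1 replicate each. Within the wide class, the ratios were 2.33 for LPS (1 replicate against 2) and 2.83 for apoptotic cells (2 against 2).

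As a share of each replicate's own peaks, the same peaks did not separate the conditions. The share was 0.0158%, 0.00953% and 0.0141% in the unstimulated replicates, 0.0261%, 0.0176% and 0.0127% after LPS, and 0.0171%, 0.0317% and 0.0126% with apoptotic cells. The conditions overlapped, with means of 0.0131 ± 0.00324% without stimulation, 0.0188 ± 0.00678% after LPS and 0.0205 ± 0.00999% with apoptotic cells (SD, n = 3). The ratio of means was 1.43 for LPS (exact permutation test, two-sided, p = 0.3) and 1.56 for apoptotic cells (p = 0.4). Among peaks scoring at least 100, the ratio for LPS was 0.914. Within the narrow class, that for apoptotic cells was 0.891, from 1 replicate each.

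**Figure D1:**
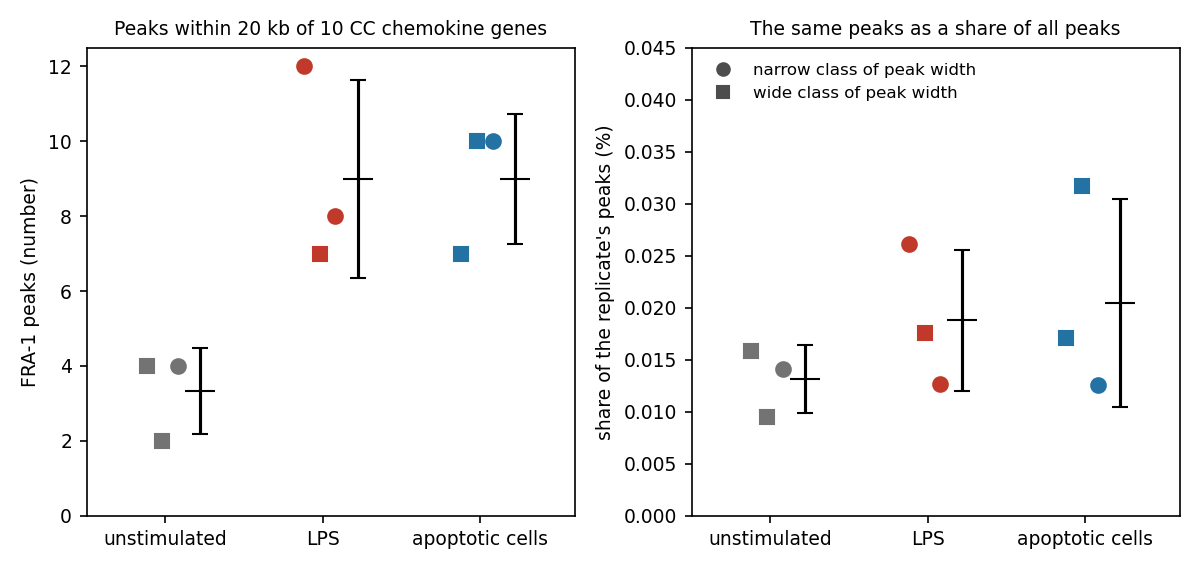
Number of FRA-1 peaks within 20 kb of the 10 CC chemokine genes (left axis, number) and the same peaks as a share of all peaks of the replicate (right axis, %), with 1 point per replicate, the shape giving the class of peak width, and bars for the mean ± SD (n = 3). The numbers run from 2 to 4 without stimulation and from 7 to 12 with either stimulus, whereas the shares overlap between all 3 conditions.

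Peak density around these genes lay above that around all genes in some replicates and below it in others. The windows of the 10 genes cover 344 kb. They held 9.67 ± 3.34 peaks per Mb without stimulation, 26.2 ± 7.67 after LPS and 26.2 ± 5.02 with apoptotic cells (SD, n = 3). The windows of all protein-coding genes held 9.85 ± 1.5, 20.3 ± 5.76 and 20.3 ± 10.6 peaks per Mb. In single replicates, the chemokine density was 0.706 to 1.15 times that of all genes without stimulation, 0.873 to 1.86 times after LPS and 0.901 to 2.35 times with apoptotic cells.

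Most of these regions were seen once. Of the 47 regions, 39 (83.0%) had a peak in 1 of the 9 replicates, against 89.7% of all regions. These 39 comprised 4 of unstimulated, 16 of LPS and 19 of apoptotic cell replicates, with scores from 53.76 to 208.17 and a median of 98.9. Of the other 8, only 5 (10.6%) had a peak in at least 2 replicates of 1 condition, against 7.79% of all regions (95% Wilson interval of the chemokine share 4.63 to 22.6%, counting error only). By condition, LPS had 5 such regions (7.33% of all regions had a peak in at least 2 LPS replicates), unstimulated macrophages had 1 (1.39% of all regions) and apoptotic cells had 1 (2.76%), so that LPS had the most over the whole genome as well.

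**Figure D2:**
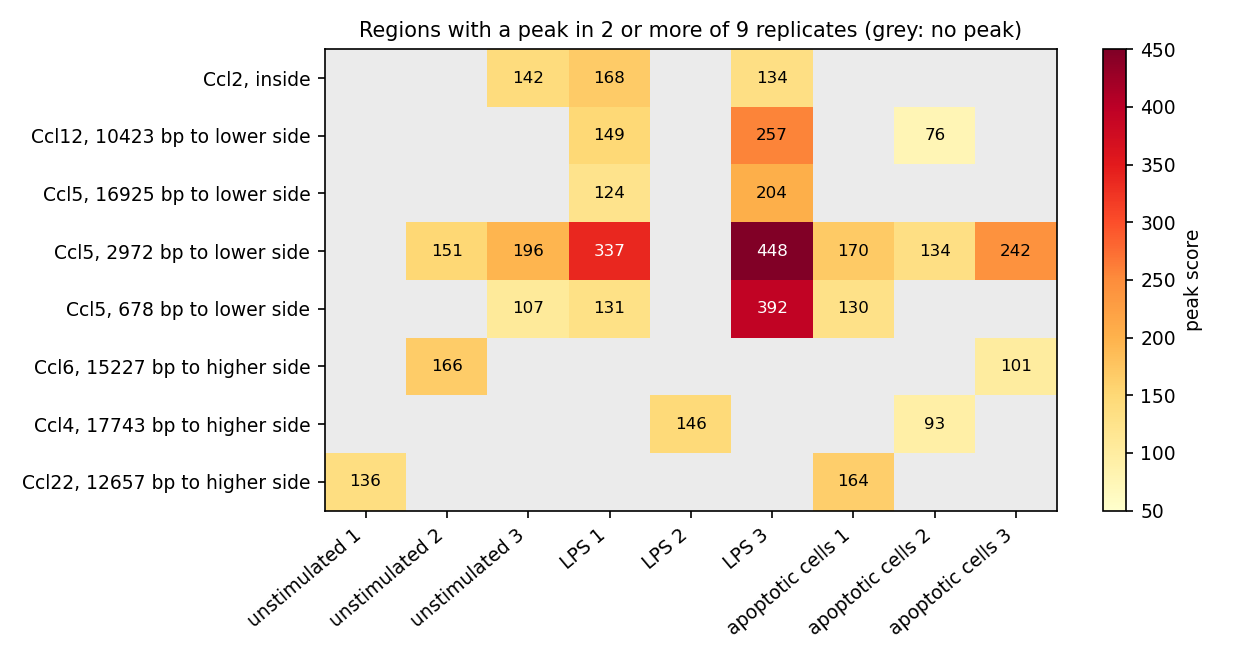
Peak score (colour and number, no unit) of the 8 regions that 2 or more of the 9 replicates listed (vertical, named by the nearest gene and the distance to it) in each replicate (horizontal), grey where no peak was listed. LPS replicate 2 shares 1 of these regions, near Ccl4, and has none of the 5 regions that LPS replicates 1 and 3 have in common.

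A region was called gained with LPS when at least 2 LPS and no unstimulated replicates had a peak on it. Near the CC chemokine genes 2 of 47 regions (4.26%, 95% Wilson interval 1.17 to 14.2%) were gained, and over the whole genome 4.20% were. The gained regions lay near Ccl12 and near Ccl5, so that 2 of the 10 genes had one within 20 kb, against 34.0% of all protein-coding genes. The chemokine genes are shorter than most (median 3700 bp against 17169 bp), which makes their windows shorter. With apoptotic cells, 0 of 47 regions were gained, which allows a share of up to 6.38% by the limit of 3 counts (Wilson upper bound 7.56%), against 0.781% of all regions and 8.12% of all protein-coding genes with such a region. In the opposite direction, 0 of 47 had a peak in at least 2 unstimulated and no LPS replicates, against 0.0862% of all regions. Both gained regions came from LPS replicates 1 and 3, of the narrow class. Leaving out either of these left 0 gained regions, and leaving out unstimulated replicate 3, also of the narrow class, gave 4, near Ccl2, Ccl7, Ccl12 and Ccl5.

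**Figure D3:**
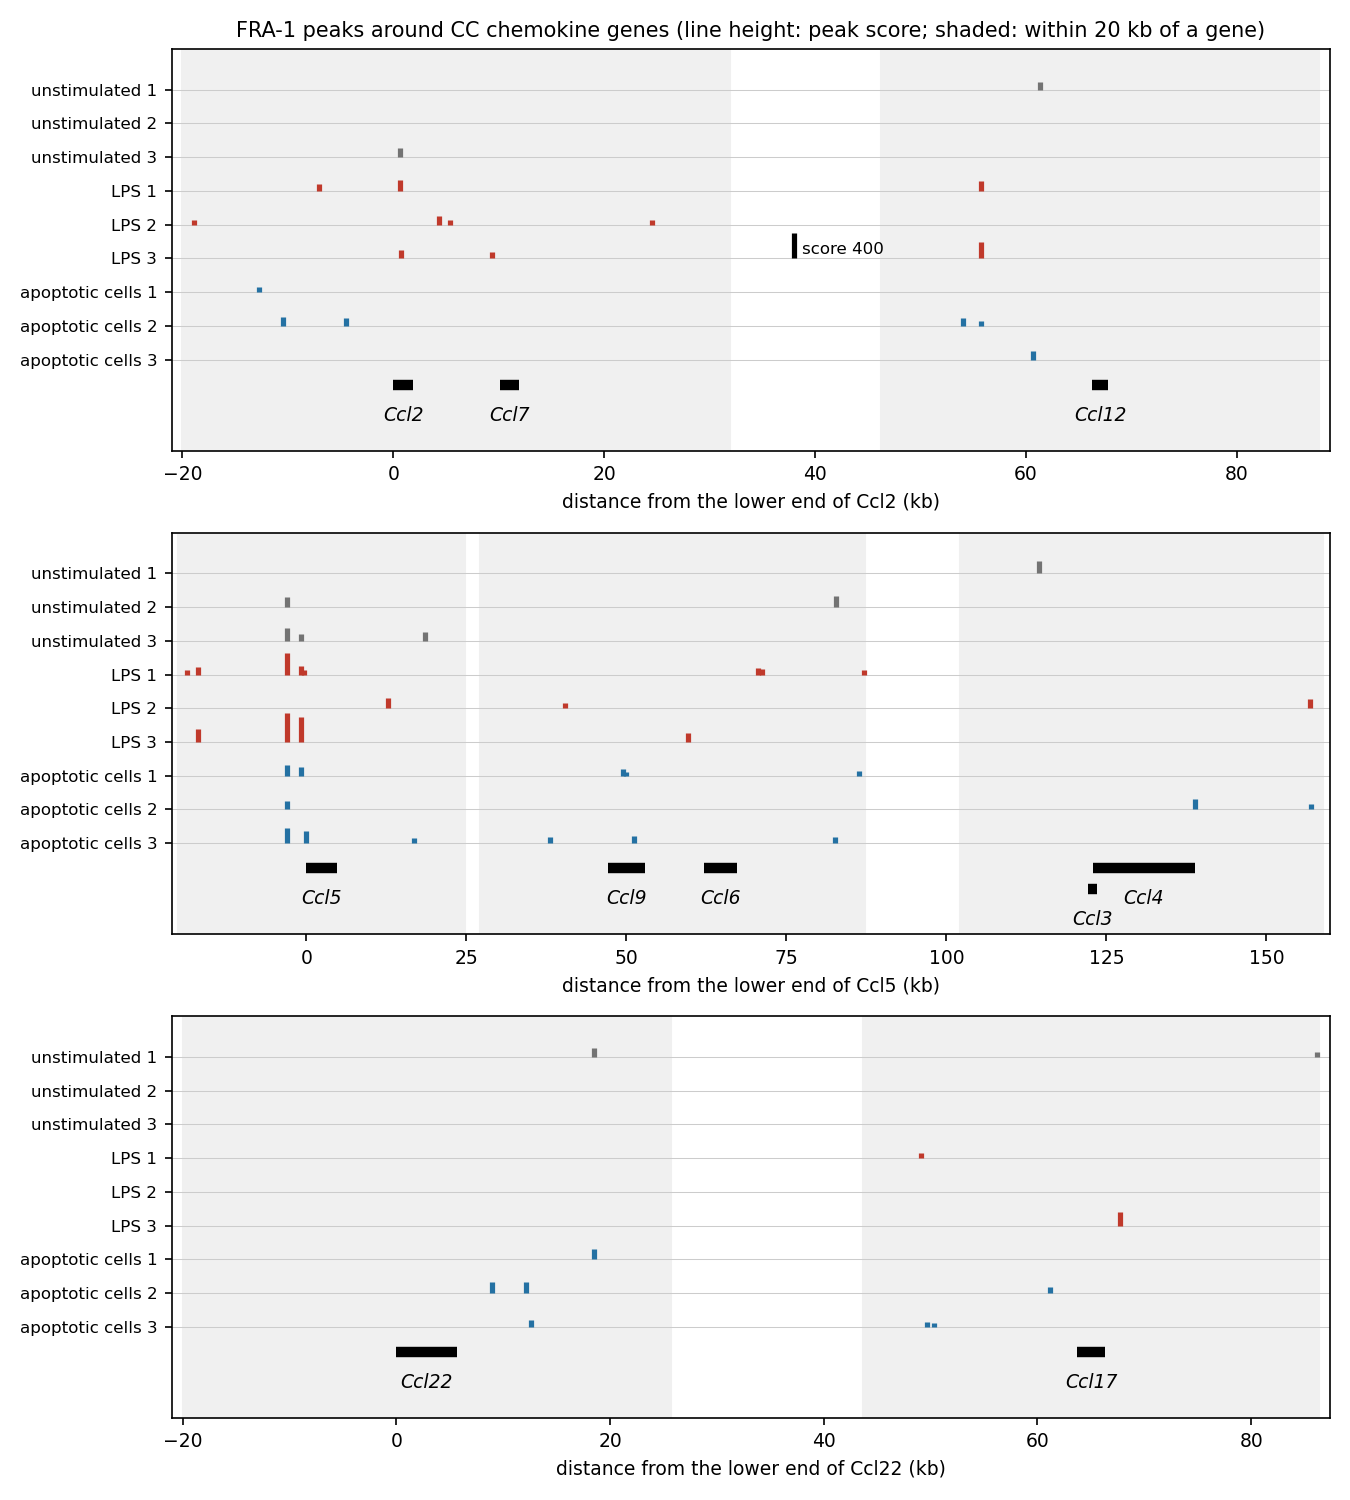
FRA-1 peaks (vertical lines, height proportional to the score) in each of the 9 replicates around Ccl2, Ccl7 and Ccl12 (top), Ccl5, Ccl9, Ccl6, Ccl3 and Ccl4 (middle) and Ccl22 and Ccl17 (bottom), with gene bodies in black, the 20 kb windows shaded and distance in kb from the end of the first gene with the lower coordinate. The tall lines just below Ccl5 recur in 7 of 9 replicates, and most other lines stand alone.

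Ccl2, Ccl7 and Ccl12 encode monocyte chemoattractant proteins, which draw monocytes from the blood through the receptor CCR2. Ccl2 (chr11:82035577-82037452) was the only 1 of these 3 with a region inside its body, at chr11:82036129-82036451. Unstimulated replicate 3 had a peak there with a score of 142.05, LPS replicate 1 had 167.63 and LPS replicate 3 had 133.89. The other 6 replicates, apoptotic cell replicates included, had none, and all 3 replicates with the peak were of the narrow class. These scores ranked at the 44.4th, 68.5th and 22.7th percentile of their replicates, so that the LPS replicates lay on either side of the unstimulated one. The deposited table gives the identifier of Ccl2 for this region and leaves the symbol blank.

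Around Ccl2 and its neighbour Ccl7 (chr11:82045712-82047525), other peaks stood alone. Within 20 kb of Ccl2 there were 9 regions, 6 with an LPS peak, 3 with an apoptotic cell peak and 1 with an unstimulated peak, and 6 of these 9 lay within 20 kb of Ccl7 as well. LPS replicate 2 had scores of 132.44 at chr11:82039748-82039983 and 70.09 at chr11:82040867-82041110, between the 2 genes. LPS replicate 3 had a score of 97.19 at chr11:82044854-82044998, 714 bp below Ccl7. Every LPS replicate thus had a peak within 20 kb of Ccl2 and of Ccl7, and only the position inside Ccl2 was shared, by 2 of them. Apoptotic cell replicate 2 had a score of 124.89 at 4369 bp below Ccl2, the only peak with the symbol Ccl2 in the deposited table.

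Ccl12 (chr11:82101845-82103399) had 4 regions within 20 kb, all upstream of its start. One of them, at chr11:82091227-82091422, was gained with LPS. Its score was 148.66 in LPS replicate 1, 257.04 in LPS replicate 3 and 76.49 in apoptotic cell replicate 2, and no other replicate had a peak there. Both LPS scores lay above that of the apoptotic cell replicate, and their percentiles were 63.8 and 73.2 against 10.5. This region lay 10423 bp from the gene body. Closer to the gene, unstimulated replicate 1 had a score of 115.46 at 4784 bp from the gene body, and apoptotic cell replicate 3 had 138.26 at 5508 bp.

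Ccl3, Ccl4 and Ccl5 encode the macrophage inflammatory proteins and RANTES, which attract monocytes and T cells. Ccl5 (chr11:83525778-83530518) had a peak in more replicates than any other member. It had 9 regions within 20 kb, as many as Ccl2 and Ccl6, and a peak in 2 of 3 unstimulated, 3 of 3 LPS and 3 of 3 apoptotic cell replicates. The most widely shared region lay at chr11:83522636-83522806, 2972 bp below Ccl5, 287 bp from the promoter window of Heatr9 and inside the long non-coding RNA gene Gm32650. Its score was 150.71 and 196.4 in unstimulated replicates 2 and 3, 337.19 and 448.01 in LPS replicates 1 and 3, and 169.54, 133.53 and 242.49 in the apoptotic cell replicates. Unstimulated replicate 1 and LPS replicate 2, both of the wide class, had no peak there. Both LPS scores lay above every other score at this position. Ranked within their replicates, LPS replicates 1 and 3 stood at the 94.7th and 96.8th percentile, beside 97.1 for apoptotic cell replicate 3, 75.1 for unstimulated replicate 3, 75.0 for apoptotic cell replicate 1, 55.0 for unstimulated replicate 2 and 41.7 for apoptotic cell replicate 2. By percentile the LPS and apoptotic cell replicates therefore overlapped. The authors assigned this region to Heatr9.

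A second shared region, at chr11:83524850-83525100, lay 678 bp from Ccl5. It scored 107.08 in unstimulated replicate 3, 131.11 in LPS replicate 1, 392.19 in LPS replicate 3 and 129.52 in apoptotic cell replicate 1. LPS replicate 3 stood apart at the 93.8th percentile, and the other LPS replicate with a peak was close to the apoptotic cell replicate in score. The region gained with LPS near Ccl5 was farther away, at chr11:83508738-83508853, 16925 bp below the gene. It scored 124.13 in LPS replicate 1 and 203.59 in LPS replicate 3, at the 41.7th and 55.9th percentile, and no other replicate had a peak on it. The closest region to Ccl5, 17 bp from it, was listed only in apoptotic cell replicate 3, with a score of 184.35. These distances, and that of the most widely shared region, run to the end of Ccl5 with the lower coordinate. No start was matched for Ccl5, so they are not distances to its start.

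Ccl3 (chr11:83647843-83649378) and Ccl4 (chr11:83648624-83664683) overlap in RefSeq, where a predicted transcript extends Ccl4. They were nearly free of listed peaks. Ccl3 had 2 regions within 20 kb, each in 1 replicate and none with an LPS peak. Unstimulated replicate 1 had a score of 189.12 at 7507 bp from Ccl3, and apoptotic cell replicate 2 had 164.05 at chr11:83664596-83664756, across the upper end of Ccl4. A further region, 17743 bp beyond Ccl4, scored 146.49 in LPS replicate 2 and 92.92 in apoptotic cell replicate 2. No LPS replicate had a peak closer than this to either gene. At least 1 LPS replicate had a peak within 20 kb of 92.2% of all protein-coding genes. Within 50 kb, all 3 LPS replicates had a peak near Ccl3 and near Ccl4.

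Ccl6 and Ccl9 encode chemokines that act through CCR1 and are made by macrophages and other myeloid cells. Ccl9 (chr11:83572917-83578636) held 3 regions inside its body, each listed in 1 apoptotic cell replicate, as 19 of the 39 regions seen once were. Over the whole genome, 89.7% of regions had a peak in 1 replicate. Apoptotic cell replicate 1 had scores of 112.26 at chr11:83575107-83575275 and 62.28 at chr11:83575585-83575927, and replicate 3 had 114.28 at chr11:83576915-83577096. These scores ranked at the 41.0th, 3.15th and 61.8th percentile of their replicates. The 3 positions did not overlap, and the last of them lay 1630 bp downstream of the start. Each LPS replicate had a peak within 20 kb of Ccl9, and no unstimulated replicate did, but the 4 regions with an LPS peak were each listed in 1 LPS replicate. For comparison, 42.5% of all protein-coding genes had a peak within 20 kb in all 3 LPS replicates. In at least 1 unstimulated replicate, 78.2% had one. The share of genes with the pattern of Ccl9 was not counted.

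Ccl6 (chr11:83587886-83593087) had 9 regions within 20 kb and none inside. LPS replicate 1 had scores of 94.54 and 89.64 at 3087 and 3761 bp upstream of the gene body, and these were assigned to Ccl6 by the authors. The only position shared by 2 replicates, 15227 bp from the gene, scored 166.22 in unstimulated replicate 2 and 101.47 in apoptotic cell replicate 3. The 2 peaks overlap at their ends only, since one was listed in the Apop table from 83608314 to 83608543 and the other in the unstimulated table from 83608511 to 83608693.

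Ccl17 and Ccl22 encode the ligands of CCR4, a receptor of T helper 2 and regulatory T cells, and lie on chromosome 8. Ccl22 (chr8:94745684-94751388) had no peak within 20 kb in any LPS replicate. All 3 apoptotic cell replicates had one, with scores of 163.8 in replicate 1, 175.18 and 169.12 in replicate 2 and 110.92 in replicate 3. These lay at 4 positions from 3177 to 12657 bp beyond the gene, so that no position was shared between apoptotic cell replicates. At the farthest, chr8:94764045-94764286, unstimulated replicate 1 also had a peak, with a score of 136.08. Among all protein-coding genes, 37.0% had a peak within 20 kb in all 3 apoptotic cell replicates. In at least 1 LPS replicate, 92.2% had one.

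Ccl17 (chr8:94809380-94812038) had 6 regions within 20 kb, each in 1 replicate. The highest score was 208.17 in LPS replicate 3, at chr8:94813332-94813439, 1294 bp beyond the gene. LPS replicate 1 had 85.49 at 14486 bp, apoptotic cell replicate 2 had 94.43 at 2417 bp, apoptotic cell replicate 3 had 77.43 and 53.76 at 13963 and 13207 bp, and unstimulated replicate 1 had 73.86 at 19596 bp. Thus neither gene had a position listed in more than 1 replicate of the same condition.

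**Figure D4:**
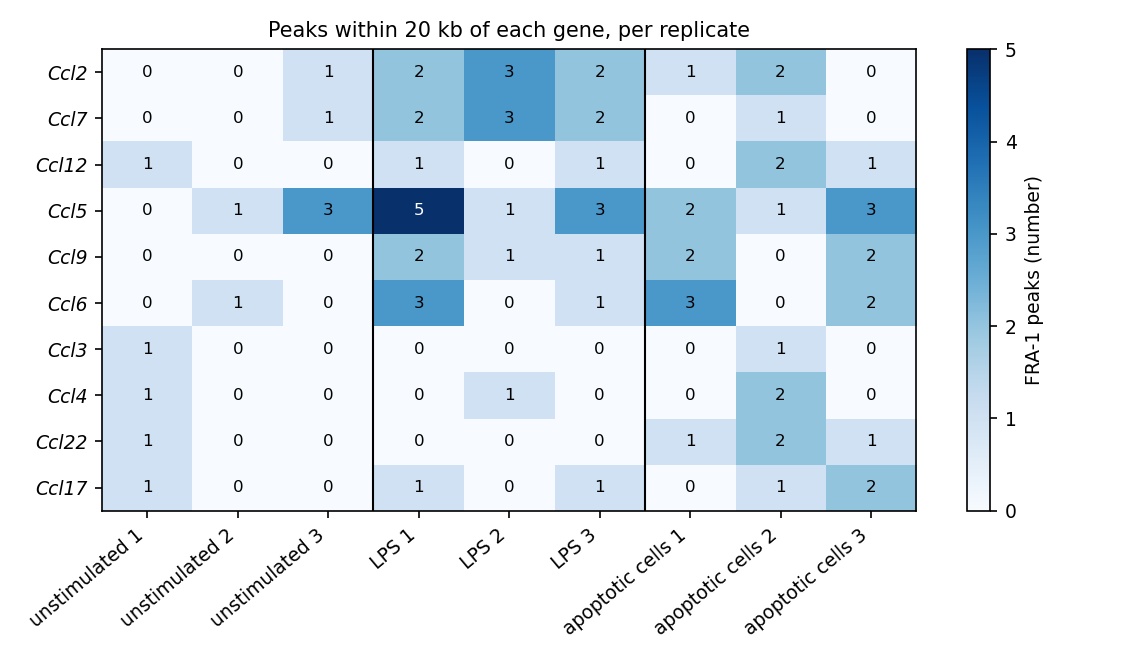
Number of FRA-1 peaks within 20 kb of each of the 10 genes (rows) in each of the 9 replicates (columns), where a peak near several genes counts for each. Ccl5 has a peak in 8 of 9 replicates and up to 5 in one of them, while Ccl3 and Ccl22 have 0 in every LPS replicate.

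Counted by gene, 9 of the 10 had a peak within 20 kb in at least 1 unstimulated replicate, 8 after LPS and 10 with apoptotic cells, where 78.2%, 92.2% and 93.1% of all protein-coding genes did. In all 3 replicates of a condition, this held for 0 genes without stimulation, for 4 after LPS (Ccl2, Ccl5, Ccl7 and Ccl9) and for 2 with apoptotic cells (Ccl5 and Ccl22). Of all protein-coding genes, it held for 18.9% without stimulation, 42.5% after LPS and 37.0% with apoptotic cells, so that 4 of 10 after LPS is near the background. Single replicates had a peak near 5, 2 and 3 of the 10 genes without stimulation, near 7, 5 and 7 after LPS, and near 5, 8 and 6 with apoptotic cells. The conditions touched at 5, and the means of 6.33 ± 1.15 after LPS and 6.33 ± 1.53 with apoptotic cells against 3.33 ± 1.53 without stimulation (SD, n = 3) gave p = 0.2 each (exact permutation tests, two-sided). Of all protein-coding genes, 41.4 to 52.4% had a peak within 20 kb in an unstimulated replicate, 61.1 to 79.1% in an LPS replicate and 54.9 to 82.7% in an apoptotic cell replicate. Neighbours in the clusters share peaks, since 14 of the 47 regions lay within 20 kb of more than 1 of the 10 genes.

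In most replicates, the median score rank of the peaks near these genes lay below the middle. Over all replicates, the 64 peaks had a median score percentile of 43.0, where 50 would be the middle of a replicate. By replicate, the median percentile was 41.5, 62.8 and 43.0 without stimulation, 29.2, 23.0 and 57.6 after LPS, and 41.0, 39.4 and 49.6 with apoptotic cells. The conditions overlapped.

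**Figure D5:**
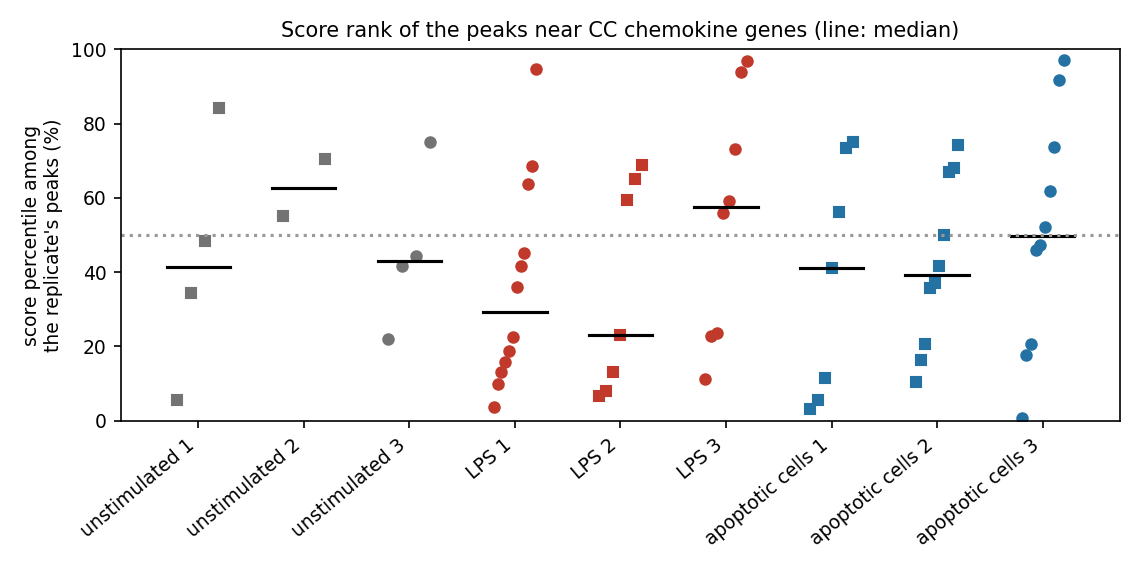
Score percentile (%, ranked among all peaks of the same replicate) of each FRA-1 peak within 20 kb of the 10 genes, by replicate, with the median as a line, circles for the narrow and squares for the wide class of peak width, and a dotted line at 50. Medians run from 23.0 in LPS replicate 2 to 62.8 in unstimulated replicate 2.

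Other CC chemokine genes and the receptors were counted by the same rule for comparison. Of 9 further ligand genes (Ccl1, Ccl8, Ccl11, Ccl19, Ccl20, Ccl24, Ccl25, Ccl27a and Ccl28), 1 had a region gained with LPS within 20 kb, against 34.0% of all protein-coding genes. This was Ccl25, a chemokine of thymus and small intestine, with scores of 267.73 and 406.68 in LPS replicates 1 and 3 and 184.35 in apoptotic cell replicate 3. Of 13 receptor genes, 3 had such a region, namely Ccr4, Ccr8 and Ccr10. Those near Ccr4 (131.8 and 190.89) and Ccr8 (88.08 and 76.98) came from LPS replicates 1 and 3, of the narrow class. Apoptotic cell replicate 3 also had a peak near Ccr8, with a score of 68.94. The region near Ccr10, a receptor of skin-homing lymphocytes, was listed in all 3 LPS replicates (290.79, 107.8 and 491.59) and in no other replicate. How many of all regions were listed in this way was not counted. The region lay within 20 kb of Ccr10, and its exact distance and other genes around it were not examined. With apoptotic cells, 0 of 9 ligand genes and 1 of 13 receptor genes, Ccr1, had a gained region, against 8.12% of all protein-coding genes. It was listed in apoptotic cell replicates 2 and 3 with scores of 85.08 and 58.24.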

How the data were processed

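Processed peak tables of FRA-1 ChIP-seq in peritoneal macrophages were analysed, with 3 unstimulated, 3 LPS and 3 apoptotic cell replicates. The authors deposited 1 table per condition, without a header, with a score per replicate (Phred-like, negative without a peak), another column with the sum of the scores and another with the number of replicates with a peak. The submitters' processing notes name BWA 0.7.14, bedtools and mm10/GRCm38, and the peak caller behind these tables is not given in the sources used here (the paper names MACS2 for its own re-analysis of the reads). Start positions were read as counted from 0 and are printed from 1.

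Table segments were rejoined into peaks where they adjoined and had equal scores. Regions were then built from the peaks of all 9 replicates, merging those that met or overlapped and keeping the highest score per replicate. Gene positions and promoters were taken from RefSeq (GRCm38.p6). No genome sequence was used, so region sequences are not shown. Distances are from the gene body, and from the transcription start where one was known. A position below a gene is one at lower coordinates, whatever the strand. Conditions were compared with exact permutation tests over replicates, taken as unpaired, where 3 against 3 allow no p under 0.1. All 10 genes were named, and every region listed in 2 or more replicates was described. Genes, lists, motifs and width classes were chosen with earlier results of these data known. The scripts were tested on simulated data. Alternatives were other distances, stricter scores, equal numbers of peaks, another merging gap, width classes and leaving out each replicate. Tables were handled with pandas 2.3.3 and numpy 2.4.6 in Python 3.11.15, tests run in scipy 1.17.1, and plots drawn in matplotlib 3.10.9.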

Additional observations from a re-analysis of the deposited data

How the results depend on the processing

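The number of peaks near the CC chemokine genes was higher after LPS and with apoptotic cells than without stimulation under every alternative run. With each replicate left out, the ratio ranged from 2.25 to 3.0 for either stimulus. With equal numbers of top-scoring peaks per replicate, it was 1.12 for LPS and 1.62 for apoptotic cells. The ratio of LPS to apoptotic cells ranged from 0.833 to 1.11 with each replicate left out. The share of all peaks reversed in 2 settings, to 0.914 for LPS with scores of at least 100 and to 0.891 for apoptotic cells in the narrow class. With each replicate left out, it lay between 1.15 and 1.66 after LPS and between 1.13 and 1.86 with apoptotic cells. The regions gained with LPS, and the genes near them, numbered 0 inside gene bodies, within 5 kb, by the deposited gene column alone and when all 3 LPS replicates were required. They numbered 1 above each replicate's median score and 1 for equal numbers of peaks, 3 within 50 kb, and from 0 to 4 with each replicate left out. Fewer positions or peaks enter most of these settings, and whether this changed the counts was not tested. Regions gained with apoptotic cells or lost with LPS stayed at 0 in all settings run. The counts by gene also moved with distance. At each distance, gene bodies included, peaks and regions with the gene's symbol written beside them were counted as well. Within 50 kb, Ccl3 and Ccl4 each had a peak in 3 LPS replicates and Ccl22 in 2. Inside gene bodies, Ccl5 and Ccl9 had one in 0 LPS replicates. No paired analysis was possible because no table column names its mouse. As the depth is unknown, a gene without a listed peak had no binding detectable at the authors' threshold.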
